A study of Mus musculus with 6 samples.

Results

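The comparison of IKKa-null with wild-type mouse embryonic fibroblasts covered 4 of the 6 arrays of a study of gene expression regulated by the kinase IKKa. Its samples were the 2 replicates titled IKKa-/- and the 2 titled wild-type, and it was read over all genes measured. Wild-type cells carried no stated mutation, IKKa-null cells lacked the IKKa gene on both alleles, and 2 further samples, labelled IKKa+/+reconstituted, gave the values set beside the comparison. Cells of every group were grown in 10% FCS to 80% confluency, with no other treatment named in the labels, and total RNA was labelled with biotin and hybridised to Illumina mouse bead arrays, 1 array a sample. The labels name no strain, embryo, passage or method of immortalisation, and they do not say whether the 2 replicates of a group were separate cultures. The p-values therefore reflect how far these particular samples varied, and that variation may be technical.

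IKKa is a subunit of the kinase complex that acts on the inhibitors of NF-kB, and on its own it drives processing of the NF-kB2 precursor p100. It also has roles in the nucleus, at chromatin. SV40 large T antigen, a viral protein often used to immortalise embryonic fibroblasts, binds and disables both the tumour suppressor p53 and the retinoblastoma protein. Genes switched on by p53 tend to be low in cells with large T, and genes held down by the retinoblastoma family through E2F factors, which serve DNA synthesis and chromatin assembly, tend to be high.

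The arrays carry targets for vector and viral sequences, and these set the groups apart before any mouse gene was compared. The target for large T gave 4431.6 and 6076.1 intensity units on the 2 wild-type arrays and 88.6 and 111.8 on the IKKa-null arrays, where it lay within background. Reconstituted cells gave 212.3 and 203.2 units. Large T was thus high on both wild-type arrays and on no IKKa-null array. The target shared by large T and small t gave 1926.4 and 2874.3 units in wild type against 92.8 and 107.5 in IKKa-null cells. The gene for ampicillin resistance, which plasmids carry, gave 463.9 and 778.6 units against 117.7 and 114.3. Neomycin resistance, the cassette commonly used to disrupt a gene, ran the other way, with 106.5 and 117.8 units in wild type, 2433.1 and 2230.7 in IKKa-null and 3458.1 and 2638.1 in reconstituted cells. Xist, which silences an X chromosome, gave log2 signals of 8.92 and 8.17 in wild type and lay below background in IKKa-null cells, while the Y-linked gene Eif2s3y was below background in wild type and gave 8.47 and 8.41 in IKKa-null cells (both named after their values were seen). Targets of retroviral origin differed too. The 5′ LTR of a murine sarcoma virus gave 94.1 and 119.2 units in wild type and 3260.7 and 3524.9 in IKKa-null cells. A retroviral packaging signal gave 101.9 and 109.4 units against 206.1 and 244.1. Loss of IKKa, presence of large T, the other vector and retroviral signals and the sex-linked difference therefore separated the same samples. Their effects on any gene below cannot be told apart. No probe carried the symbol Chuk, the gene of IKKa, in the annotation used, so the deletion itself was not checked here.

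**Figure D1:**
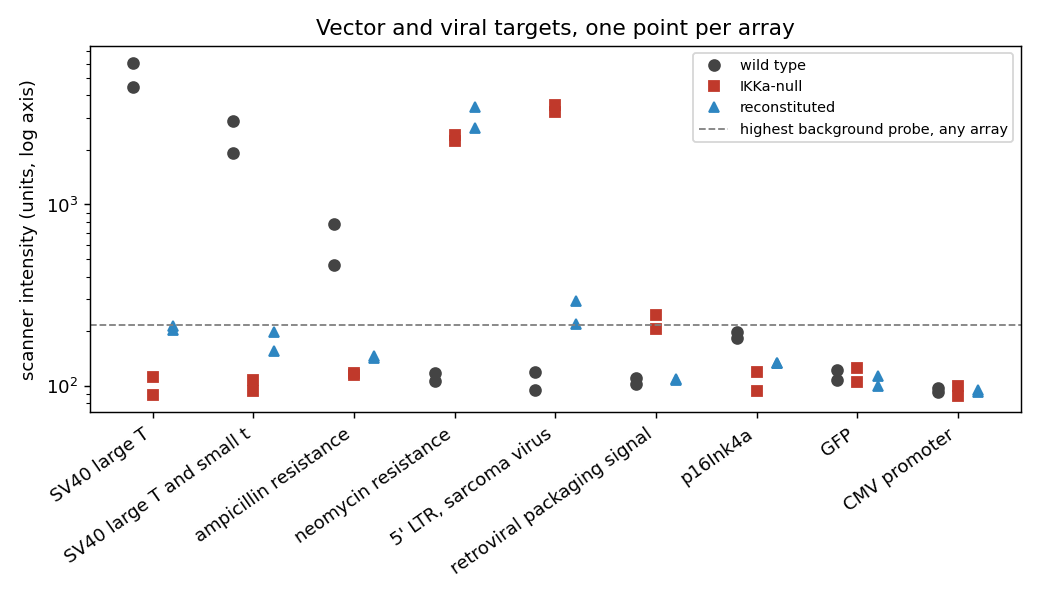
Scanner intensity (units, log axis) of 9 vector, viral and control targets on each of the 6 arrays; circles are wild type, squares IKKa-null, triangles reconstituted, and the dashed line is the highest background probe on any array (217.3 units). Large T stood at 4431.6 and 6076.1 in wild type and at or below the line in the other 4 samples, and neomycin resistance at 2230.7 to 3458.1 in the other 4 samples.

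In IKKa-null cells 1007 of 7407 tested genes (13.6%) had a higher signal than in wild type and 1143 (15.4%) a lower one (limma, Benjamini-Hochberg adjusted p under 0.05, called below). The median log2 change over all genes was -0.12, and the 2 groups did not overlap for 5213 genes (70.4%), so absence of overlap is common here. By probes, 51.7% of calls were higher, against 60.2% under cyclic loess and 70.3% under median scaling, which moved the median of all probes from -0.07 to 0.04. Among called genes, 644 were higher and 508 lower by 2-fold or more. Between 9197 and 11067 probes were above background on an array, and replicate arrays correlated at 0.968 to 0.9793 across probes. The count of probes called fell from 3375 to 1785 and 1486 without wild-type replicate 1 or 2, and to 1623 and 1632 without IKKa-null replicate 1 or 2. Of 203 named genes that were called, 111 were called with each of the 6 arrays left out in turn, and the others that are described are listed in their paragraphs with the highest adjusted p reached. Genes said to be named after their values were seen, and genes named only as cell type markers or within runs, were outside these 203. Their calls were not checked singly with arrays left out. Ranges in parentheses after the counts of a gene list are the lowest and highest counts with 1 array left out. Where 1 group lay below background a fold is given as a lower bound ("at least"). Where only 1 of the 2 arrays of a group was above background, the text says so, and the fold then rests partly on a signal not above background. That held in IKKa-null cells for Dram1, Tfdp2, Dck and Ung and in wild type for Xrcc4, Ncoa1 and Il13ra1, beside the genes marked below. Values in reconstituted cells are set against the same wild-type arrays, so the 2 comparisons share those arrays and are given side by side only.

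The genes that p53 switches on were more often higher than lower in IKKa-null cells, where large T was not above background. Of 32 tested targets, 14 were called higher (13.6% over all genes) and 3 lower (15.4%), with a median log2 change of 0.74. Cdkn1a, the cell cycle inhibitor p21, gave log2 signals of 9.19 and 8.88 in wild type, 11.8 and 11.85 in IKKa-null and 10.37 and 9.88 in reconstituted cells, a 6.9-fold difference between the first 2 groups (2.79 ± 0.222 on the log2 scale, difference ± SE, limma adjusted p = 0.00042). Eda2r, a receptor of the TNF family, lay below background at 6.09 and 6.08 in wild type and gave 9.71 and 9.89 in IKKa-null cells, at least 11.5-fold more (adjusted p = 7.21e-05). Ccng1, cyclin G1, was 6.38-fold higher and Trp53inp1, a stress protein of cell death and autophagy, at least 4.88-fold higher. In each of these 4 genes reconstituted cells lay between the other groups. Mdm2, the ubiquitin ligase of p53, was 3.89-fold higher (11.04 and 10.97 against 12.89 and 13.04), with 10.88 and 10.37 in reconstituted cells, and Zmat3, an RNA-binding protein, and Phlda3, an inhibitor of Akt, were 4.12-fold and 3.8-fold higher. The 3 lower targets were Cd82, a tetraspanin (at least 3.1-fold), Gpx1, glutathione peroxidase (2.89-fold), and Dram1, a lysosomal protein of autophagy (1.7-fold). Mdm2, Zmat3 and Phlda3 were named after their values were seen, and their calls were not checked singly with arrays left out. The call of Dram1 ended with some arrays left out (highest adjusted p 0.192). Against wild type, reconstituted cells had 8 of the 32 targets higher (15.6% over all genes) and 3 lower (21.3%), with a median of 0.11. A weak large T signal was above background in reconstituted cells, and its part in this difference was not tested.

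**Figure D2:**
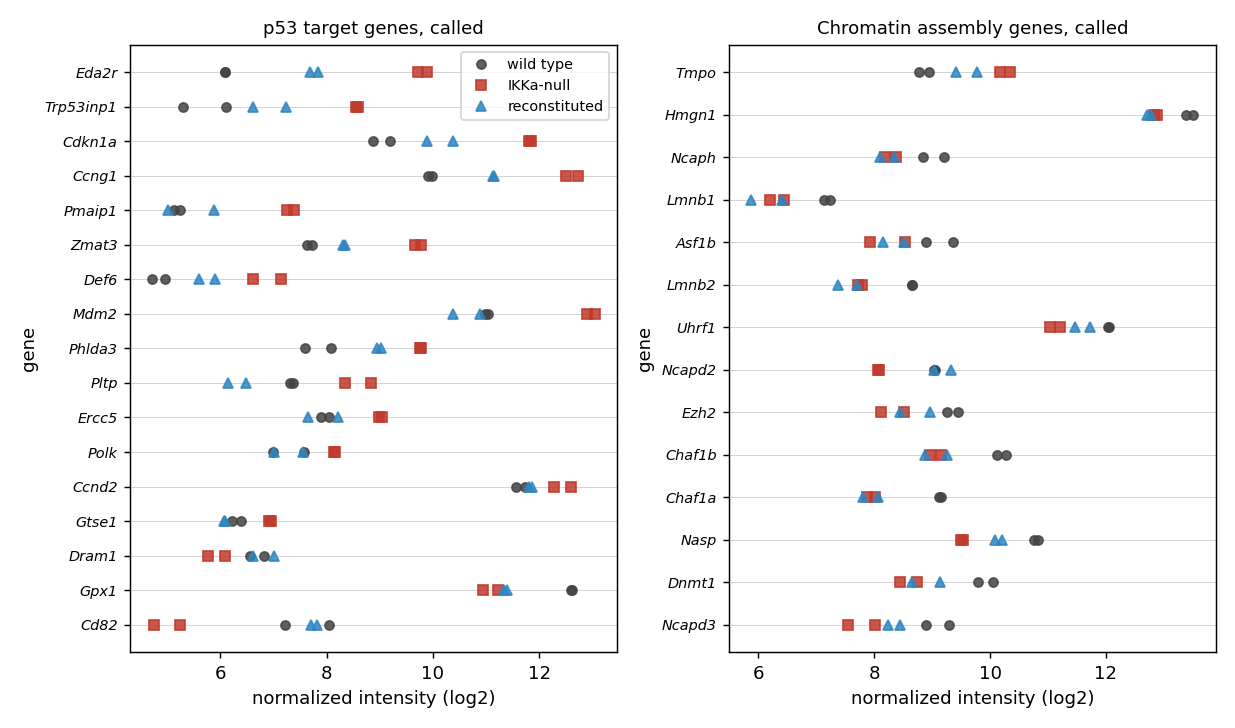
Normalized intensity (log2) of the called members of 2 gene lists, p53 target genes and chromatin assembly genes, with 1 point per array; circles are wild type, squares IKKa-null, triangles reconstituted. Cdkn1a, Ccng1 and Eda2r show wild type lowest and IKKa-null highest, and Dnmt1, Nasp, Chaf1a and Chaf1b show wild type highest.

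A short list of RB and E2F family genes also held the cell cycle regulators Foxm1 and Mybl2, which belong to neither family. More of its genes were called lower than higher, and Foxm1 and Mybl2 were among the 4 lower. Of 15 tested, 1 was called higher (6.67%, 0 to 1) and 4 lower (26.7%, 1 to 4), against 13.6% and 15.4% over all genes. The median log2 change was -0.27 (-0.12 over all genes). Rb1, the retinoblastoma protein, gave 6.76 and 6.51 in wild type and 7.63 and 7.44 in IKKa-null cells, 1.87-fold more. The 4 lower genes were the activator E2f2 (at least 1.82-fold), its partner Tfdp2 (2.43-fold), and the mitotic and S-phase regulators Foxm1 (1.97-fold) and Mybl2 (1.82-fold). E2f1, named after its values were seen and not called, gave 8.95 and 8.73 in wild type and 9.29 and 9.06 in IKKa-null cells. All 5 calls ended with some arrays left out, at highest adjusted p-values of 0.0868 for Rb1, 0.129 for E2f2, 0.16 for Tfdp2, 0.0647 for Foxm1 and 0.182 for Mybl2. Cdkn2a, the locus of the p16Ink4a and p19Arf inhibitors, named after its values were seen, was 2.99-fold lower in IKKa-null cells, with 9.67 and 9.23 in wild type against 7.89 and 7.85 (adjusted p = 0.00225), and 7.43 and 7.37 in reconstituted cells. A control target for p16Ink4a gave 183.7 and 196.5 intensity units in wild type and lay within background in IKKa-null cells at 93.7 and 118.2.

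Many genes that package newly made DNA were lower in IKKa-null cells. Of 30 tested chromatin assembly and S-phase histone genes, 13 were called lower (43.3%) and 1 higher (3.33%), against 15.4% and 13.6% over all genes. The median log2 change was -0.57. Dnmt1, the methyltransferase that copies CpG methylation to new DNA, gave 9.8 and 10.05 in wild type, 8.45 and 8.74 in IKKa-null and 9.13 and 8.65 in reconstituted cells, a 2.5-fold difference (-1.32 ± 0.229, adjusted p = 0.00727). Nasp, a histone chaperone, was 2.41-fold lower (10.76 and 10.82 against 9.54 and 9.49), Chaf1a, a subunit of the chromatin assembly factor CAF-1, was 2.28-fold lower (9.12 and 9.16 against 7.87 and 8.02), and Ncapd3, a subunit of condensin II, was 2.49-fold lower. Wild-type arrays were the highest in all 4 genes. Tmpo, a protein of the nuclear lamina, was the member called higher, 2.63-fold. Further called members, named after their values were seen, were Chaf1b, the second CAF-1 subunit (-1.13), Uhrf1, which brings Dnmt1 to half-methylated DNA (-0.92), Ezh2, the histone methyltransferase of Polycomb complex 2 (-1.03), Ncapd2 of condensin I (-0.97), and the lamins Lmnb1 (-0.86) and Lmnb2 (-0.9), all as log2 differences. The calls of Dnmt1 and Ncapd3 ended with some arrays left out (highest adjusted p 0.0517 and 0.0506), and those of the further members were not checked singly. The count of lower members fell to as few as 3 with 1 array left out and to 5 under median scaling. Against wild type, reconstituted cells had 12 of the same 30 genes lower (21.3% over all genes) and 1 higher (15.6%), with a median of -0.54.

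E2F factors were named above as the route by which the retinoblastoma family holds down genes of DNA synthesis and chromatin assembly. Whether they act on the listed genes in these cells was not tested. RefSeq promoter sequences (GRCm38.p6) were searched for 4 octamers of the E2F type, TTTCCCGC, TTTGGCGC, TTTGCCGC and TTTCGCGC. The search covered both strands in the 250 bases before each start. An octamer was found in 583 of 27025 genes with a promoter entry (2.16%) and in 247 of the 6117 of them that were tested (4.04%). It was found in 50 of 943 genes called lower (5.3%) and 24 of 792 called higher (3.03%). Among chromatin assembly genes 6 of 26 held one (23.1%), and in the RB and E2F list 4 of 13 (30.8%). Among DNA repair genes 5 of 31 did (16.1%), among nucleotide synthesis genes 1 of 27 (3.7%), and among p53 targets 0 of 24. Of the members called lower, 3 of 12 chromatin assembly genes held one. In the RB and E2F list 0 of 3 did, with 0 of 8 DNA repair genes and 0 of 6 nucleotide synthesis genes. Genes, not matches, were counted, so several octamers or several starts of a gene counted once. A match is a description of these letters, not a bound site. The 3 chromatin assembly genes that were called lower and held an octamer are printed below as 60 bases lying before the start, with the octamer in capitals. They are Dnmt1 at chr9:20952809-20952868 on the minus strand, Ncapd2 at chr6:125191587-125191646 on the minus strand and Uhrf1 at chr17:56304102-56304161 on the plus strand.
Dnmt1: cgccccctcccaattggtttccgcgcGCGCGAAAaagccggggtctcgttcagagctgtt
Ncapd2: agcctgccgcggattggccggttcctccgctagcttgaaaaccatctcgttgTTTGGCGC
Uhrf1: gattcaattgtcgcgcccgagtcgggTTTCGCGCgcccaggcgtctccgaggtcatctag
In Dnmt1 the octamer read on the printed strand is the reverse complement of TTTCGCGC.

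Enzymes that make nucleotides shifted the same way with fewer calls. Of 29 tested, 6 were lower (20.7%, 2 to 8) and 1 higher (3.45%, 0 to 1), against 15.4% and 13.6% over all genes. The median log2 change was -0.48, and 3 were lower under median scaling. Shmt1, which feeds one-carbon units to thymidylate synthesis, gave 8.21 and 8.43 in wild type and 6.78 and 6.72 in IKKa-null cells, 2.97-fold less (adjusted p = 0.00133), and 6.7 and 6.63 in reconstituted cells. Dck, deoxycytidine kinase, was 3.2-fold lower, Impdh1, an enzyme of guanine nucleotide synthesis, 2.25-fold and Tyms, thymidylate synthase, 2.02-fold. Prps2, a phosphoribosyl pyrophosphate synthetase, was 1.82-fold higher. The ribonucleotide reductase subunits Rrm1 and Rrm2, named after their values were seen, were not called (-0.48 and -0.15 on the log2 scale). Calls that ended with some arrays left out were those of Impdh1, Tyms and Prps2 (highest adjusted p 0.134, 0.0536 and 0.0662). Dck and Tyms lie on chromosome 5, where lower calls were frequent (see the account by chromosome), and without that chromosome 4 members were called lower and the median was -0.38.

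Among 36 tested DNA repair and checkpoint genes, 9 were lower (25.0%, 2 to 9) and 2 higher (5.56%, 1 to 2), against 15.4% and 13.6% over all genes. The median log2 change was -0.37, and 3 were lower under median scaling. Mgmt, which removes alkyl groups from guanine, stood apart from the rest of its list. It was below background at 5.16 and 5.18 in wild type and gave 10.62 and 10.87 in IKKa-null and 9.13 and 9.04 in reconstituted cells, at least 22.1-fold above wild type in IKKa-null cells (adjusted p = 3.19e-05). Rad54l, a recombination helicase, gave 9.49 and 9.64 in wild type and 8.16 and 8.16 in IKKa-null cells, 2.64-fold less, and Clspn, an adaptor of the replication checkpoint, was 2.09-fold lower. Ung, which removes uracil from DNA, and Pms2, a mismatch repair protein, both on chromosome 5, were 2.48-fold and 2.17-fold lower. Xrcc4, of double-strand end joining, was 1.65-fold higher. Leaving out some arrays ended the calls of Clspn, Ung, Pms2 and Xrcc4, at highest adjusted p-values of 0.0522, 0.0854, 0.153 and 0.129.

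Genes that assemble ribosomes in the nucleolus included 9 lower (29.0%) and 0 higher among 31 tested, against 15.4% and 13.6% over all genes. Their median log2 change was -0.54. Noc4l, which matures the small subunit, was 2.3-fold lower (9.23 and 9.39 against 8.09 and 8.12), Nolc1, a nucleolar phosphoprotein, 2.09-fold, Mrto4, an assembly factor of the large subunit, 2.05-fold, and Ncl, nucleolin, 1.87-fold. With 1 array left out the count of lower members ran from 1 to 12, and it was 1 under median scaling. Noc4l lies on chromosome 5, and without that chromosome 8 members were called lower and the median was -0.52. Calls of Nolc1, Mrto4 and Ncl ended with some arrays left out (highest adjusted p 0.177, 0.0535 and 0.112). In reconstituted cells 22 of the same 31 genes were lower than in wild type (21.3% over all genes), with a median of -1.06 (-0.14 over all genes).

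**Figure D3:**
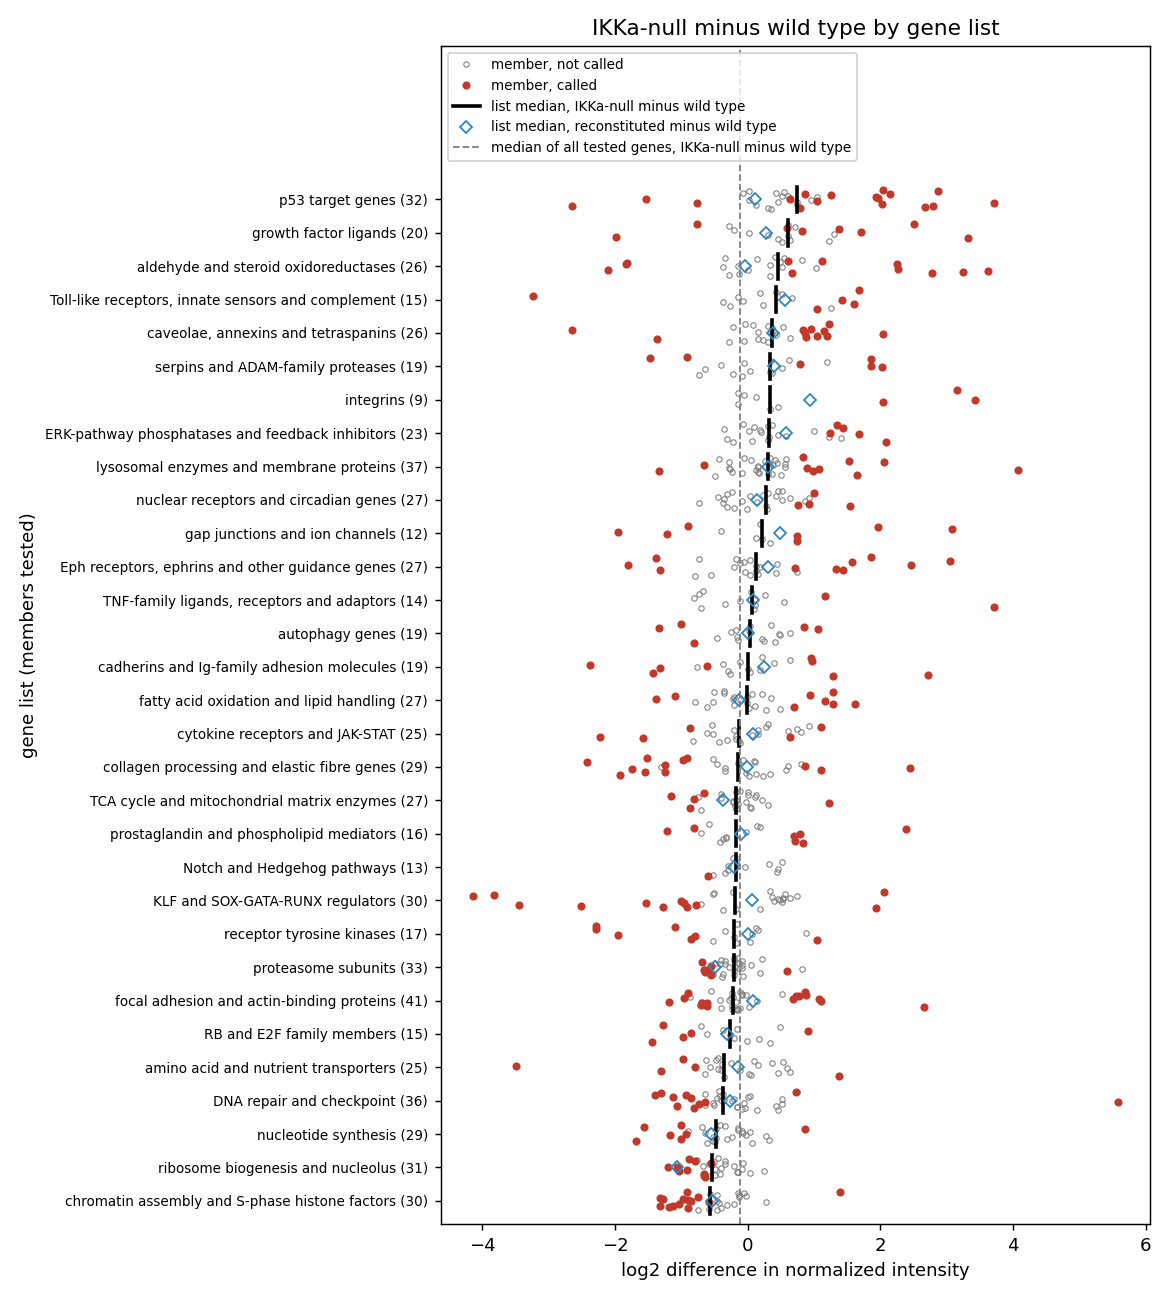
Log2 difference in normalized intensity, IKKa-null minus wild type, for the tested members of 31 gene lists; filled points were called, open points were not, black bars are list medians, open diamonds the medians of reconstituted minus wild type, and the dashed line the median of all tested genes (-0.12). List medians run from -0.57 for chromatin assembly genes to 0.74 for p53 targets.

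Integrins, the receptors that join cells to the matrix, held some of the largest measured differences. Of 9 tested, 3 were higher (33.3%) and 0 lower, against 13.6% and 15.4% over all genes, with a median log2 change of 0.33. Itga6, the alpha subunit of laminin receptors, gave 7.43 and 7.55 in wild type, 10.87 and 10.98 in IKKa-null and 10.21 and 10.05 in reconstituted cells, 10.8-fold more in IKKa-null cells (3.43 ± 0.171, adjusted p = 9.14e-05). Itgb7, a beta subunit best known from lymphocytes, gave 6.6 and 6.75 in wild type and 9.85 and 9.83 in IKKa-null cells, 8.95-fold more, and Itga3, another laminin-binding alpha subunit, was 4.1-fold higher (9.16 and 8.87 against 11.17 and 10.93). Itgb7 and Itga3 were close to wild type in reconstituted cells (6.67 and 7.09, and 8.91 and 8.74). The shared beta subunit Itgb1, not called, differed by -0.05, with all 6 arrays between 12.84 and 13.44 (values named after they were seen). The counts and calls of the 3 integrins held under all alternatives that leave out an array.

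Genes of the cytoskeleton behind the integrins were called at shares near those of all genes. Of 41 focal adhesion and actin-binding genes, 8 were higher (3 to 8) and 7 lower (1 to 6), with a median log2 change of -0.22, shares of 19.5% and 17.1% against 13.6% and 15.4% over all genes. Capg, an actin filament capping protein, was 6.28-fold higher (7.99 and 8.16 against 10.58 and 10.87), and Gsn, gelsolin, Msn, moesin, and the kinase Src were 2.14-fold, 2.11-fold and 1.85-fold higher. Fscn1, the filament-bundling protein fascin, was 2.26-fold lower, and Pdlim1, Wasf1, an activator of actin branching, and Csrp1 were 1.94-fold, 1.87-fold and 1.64-fold lower. With some arrays left out, calls were lost for Src, Pdlim1, Wasf1 and Csrp1, at highest adjusted p-values of 0.093, 0.0648, 0.135 and 0.129.

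Cell to cell adhesion molecules had calls in both directions, and caveolar and related genes were called higher more often than lower. Of 19 cadherins and Ig-family molecules, 4 were higher (21.1%, 2 to 4) and 4 lower (21.1%, 2 to 4). Over all genes 13.6% were higher and 15.4% lower, and the median log2 change of these 19 was 0.01. Cdh13, a cadherin held by a lipid anchor, was below background at 5.66 and 6.11 in wild type and gave 8.48 and 8.73 in IKKa-null and 8.6 and 8.95 in reconstituted cells, at least 5.01-fold more. Alcam was 2.45-fold higher, and Pcdh1 and Pcdh7 at least 1.32-fold and 1.02-fold. Mcam gave 7.98 and 7.96 in wild type and fell below background in IKKa-null cells, at least 3.9-fold less, and P-cadherin, Cdh3, was at least 1.59-fold, Igsf3 at least 2.02-fold and plakoglobin, Jup, 1.54-fold lower. Of 26 caveolar, annexin and tetraspanin genes, 9 were higher (34.6%, 4 to 9) and 2 lower (7.69%, 2 to 2). Their median was 0.36, and 5 were higher under median scaling. The caveolar coat genes Cavin2 (10.47 and 10.62 against 12.53 and 12.65, 4.12-fold) and Cav1 (11.42 and 11.35 against 12.57 and 12.6, 2.3-fold) were higher, as were the tetraspanins Tspan6 (2.35-fold) and Cd81 (2.22-fold). Annexin Anxa6 was 2.58-fold lower. Cav1 and Anxa6 were close to wild type in reconstituted cells, at 11.2 and 11.17 and at 10.84 and 10.97. Calls ended with some arrays left out for Alcam, Pcdh1, Pcdh7, Igsf3, Jup and Cd81 (highest adjusted p 0.0584, 0.072, 0.0925, 0.0985, 0.196 and 0.0519).

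Guidance genes, which steer axons and migrating cells, had 7 higher (25.9%, 4 to 7) and 3 lower (11.1%, 3 to 4) of 27 tested. Over all genes the shares were 13.6% and 15.4%, and the list's median log2 change was 0.12. Sema5a, a transmembrane semaphorin, gave 6.62 and 6.49 in wild type, 9.81 and 9.41 in IKKa-null and 9.38 and 9.48 in reconstituted cells, 8.29-fold more in IKKa-null cells (adjusted p = 0.000191). Rgma, a repulsive guidance molecule and BMP co-receptor, was 5.51-fold higher (7.02 and 6.95 against 9.44 and 9.46), Sema3f 2.96-fold, and the netrin receptor Unc5c at least 1.85-fold. Its relative Unc5b was 2.61-fold lower, as were the Slit receptor Robo1 (3.48-fold, with 1 of 2 IKKa-null arrays above background) and the ephrin receptor Ephb4 (2.49-fold). All 3 lower genes lay near wild type in reconstituted cells, with log2 differences from wild type of 0.24, 0.39 and -0.11 in the order Unc5b, Robo1, Ephb4. The call of Sema3f ended with some arrays left out (highest adjusted p 0.0744).

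Growth factor receptors and their ligands moved unevenly. Of 17 receptor tyrosine kinases, 6 were lower (35.3%, 4 to 6) and 1 higher (5.88%, 0 to 1), against 15.4% and 13.6% over all genes. Their median log2 change was -0.2. Pdgfra, a PDGF receptor that marks fibroblasts, gave 8.61 and 8.53 in wild type, 6.28 and 6.27 in IKKa-null and 10.39 and 10.58 in reconstituted cells, 4.89-fold less in IKKa-null cells (adjusted p = 0.000299). Flt1, a VEGF receptor, was 3.88-fold lower (10.67 and 10.43 against 8.74 and 8.44), the Wnt5a receptor Ror2 at least 2.32-fold and Ptk7 at least 1.55-fold lower. Egfr, the EGF receptor, was 2.07-fold higher. Without genes on chromosome 5, which carries Pdgfra and Flt1, 3 receptors were called lower. Of 20 growth factor ligands 6 were higher (30.0%, 4 to 5) and 2 lower (10.0%, 1 to 2), with a median of 0.61. Fgf10 was below background at 5.16 and 5.38 in wild type and gave 8.46 and 8.71 in IKKa-null and 9.82 and 10.11 in reconstituted cells, at least 4.95-fold more. The lymphangiogenic ligand Vegfd was 5.69-fold higher, with 1 of 2 wild-type arrays above background, Igf2 3.24-fold and Pdgfc at least 1.1-fold, and Gas6, a ligand of TAM receptors, was at least 1.74-fold and Vegfc 1.71-fold lower. Leaving out some arrays ended the calls of Egfr, Ptk7, Igf2 and Vegfc (highest adjusted p 0.145, 0.0544, 0.0507 and 0.178).

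Feedback inhibitors of the ERK pathway had 5 higher (21.7%, 2 to 6) and 0 lower (0 to 0) of 23, against 13.6% and 15.4% over all genes. Their median log2 change was 0.32, but their replicates disagreed. Dusp1, a MAP kinase phosphatase, gave 9.95 and 10.61 in wild type and 12.78 and 11.95 in IKKa-null cells, 4.25-fold more (2.09 ± 0.464, adjusted p = 0.0172). Errfi1, an EGF receptor inhibitor, gave 8.84 and 8.89 in wild type and 11.24 and 9.84 in IKKa-null cells (3.2-fold), and Phlda1 9.88 and 10.48 and 12.08 and 11.17 (2.72-fold). IKKa-null replicate 1 was the higher of its pair in all 3, and so was reconstituted replicate 1. The calls of Dusp1, Errfi1 and Phlda1 ended with some arrays left out (highest adjusted p 0.0937, 0.135 and 0.188), while that of Spred1, an inhibitor of Ras signalling, was kept (2.54-fold, 7.8 and 7.3 against 8.95 and 8.82).

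Receptors of innate and inflammatory signalling showed a few large differences among many that were not called. Of 15 Toll-like receptor, innate sensor and complement genes, 4 were higher (26.7%, 3 to 4) and 1 lower (6.67%, 1 to 1). Over all genes 13.6% were higher and 15.4% lower, and the list's median log2 change was 0.42. Tlr4, the receptor of bacterial lipopolysaccharide, gave 7.03 and 7.1 in wild type and 8.77 and 8.72 in IKKa-null cells, 3.2-fold more, and its downstream kinase Irak1 was 3.04-fold higher. The complement-pathway proteases Masp1 and C1ra were 2.68-fold and at least 1.2-fold higher. Nod1, a cytosolic sensor of bacterial cell wall, gave 8.22 and 7.85 in wild type and lay below background at 4.65 and 4.94 in IKKa-null cells, at least 4.09-fold less (adjusted p = 0.000172). Of 25 cytokine receptor and JAK-STAT genes, 2 were higher (0 to 3) and 3 lower (2 to 4), with a median of -0.13. Il17ra, the shared chain of IL-17 receptors, was 4.65-fold lower (8.28 and 8.25 against 6.28 and 5.81, the last not above background), while its partner chain Il17rc was 1.56-fold higher. Il13ra1 was at least 1.33-fold and the signalling inhibitor Socs2 1.83-fold lower, and Socs5 was 2.15-fold higher. Of 14 TNF-family genes, Eda2r and the decoy receptor Tnfrsf22 (2.24-fold) were higher and 0 lower, a higher share of 14.3%, near that of all genes. Notch and Hedgehog genes gave 1 call in 13 (7.69%, below the shares of all genes), the transcription factor Gli2, at least 1.45-fold lower. With some arrays left out, calls were lost for C1ra, Il17rc, Socs2, Socs5, Tnfrsf22 and Gli2 (highest adjusted p 0.0676, 0.186, 0.182, 0.0922, 0.0886 and 0.184).

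Among metabolic genes were the aldehyde and steroid oxidoreductases, with 8 higher (30.8%, 6 to 9) and 3 lower (11.5%, 3 to 3) of 26. Over all genes 13.6% were higher and 15.4% lower. The list's median log2 change was 0.45. Aldh1a1, which makes retinoic acid from retinal, gave 6.6 and 6.57 in wild type, 9.84 and 9.8 in IKKa-null and 5.16 and 5.37 in reconstituted cells, 9.43-fold more in IKKa-null cells (3.24 ± 0.17, adjusted p = 0.000113). Its close paralog Aldh1a7, at least 5.42-fold higher, was below background in both other groups, and since the 2 genes are closely related their probes may not separate them. The reductase Akr1c12 was at least 2.99-fold higher and below background in both other groups. Mitochondrial Aldh2 was 4.81-fold higher (10.89 and 10.76 against 13.03 and 13.15), with 12.46 and 12.56 in reconstituted cells. Carbonyl reductases Cbr1 and Cbr3 were 3.59-fold and at least 1.83-fold lower, and Aldh1l2, a mitochondrial folate enzyme, was 4.32-fold lower, with 1 of 2 IKKa-null arrays above background. All 7 calls held with each array left out in turn.

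Lysosomal genes had 8 higher (21.6%, 5 to 9) and 2 lower (5.41%, 1 to 2) of 37, against 13.6% and 15.4% over all genes. Their median log2 change was 0.31. Ctsh, cathepsin H, was below background at 4.84 and 4.66 in wild type and gave 8.79 and 8.84 in IKKa-null and 9.15 and 8.82 in reconstituted cells, at least 5.8-fold more (adjusted p = 7.21e-05). The glycosaminoglycan-degrading enzymes Naglu and Arsb were 4.15-fold and 3.11-fold higher, and Npc1, which exports cholesterol from lysosomes, 2.88-fold. Ctsc, cathepsin C, and Lgmn, legumain, were 2.53-fold and 1.59-fold lower. Of 19 autophagy genes 2 were higher (10.5%, 0 to 2) and 3 lower (15.8%, 1 to 3), near the shares of all genes, with a median of 0.03. The kinase Ulk1 was 2.51-fold lower and its paralog Ulk2 1.8-fold higher, the cargo receptor Sqstm1 was 2.09-fold higher, and Wipi2 and Ambra1 were 2.01-fold and 1.75-fold lower. Ulk1 and Wipi2 lie on chromosome 5, and without that chromosome 1 autophagy gene was lower and the list's median was 0.21. Calls ended with some arrays left out for Lgmn, Ulk2, Sqstm1, Wipi2 and Ambra1 (highest adjusted p 0.148, 0.116, 0.14, 0.0549 and 0.111).

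Of 33 proteasome subunits 7 were lower (21.2%, 0 to 5) and 1 higher (3.03%, 0 to 1), against 15.4% and 13.6% over all genes. Their median log2 change was -0.21. In reconstituted cells 15 were lower than in wild type (21.3% over all genes) and 0 higher (15.6%). The called subunits Psmd3, Psmb7, Psmb6 and Psmb3 were lower by 1.56-fold to 1.61-fold, and Psmb5 was 1.5-fold higher. Under median scaling and cyclic loess 0 subunits were called lower, and all 5 named calls ended with some arrays left out (highest adjusted p 0.123 to 0.173). Of 27 TCA cycle and matrix enzymes, 4 were lower (0 to 5) and 1 higher (0 to 1), with a median of -0.17, near the 15.4% lower and the median of -0.12 over all genes. Idh1, the cytosolic isocitrate dehydrogenase, was 2.35-fold higher, Dlat, of the pyruvate dehydrogenase complex, 1.83-fold lower, Mdh2, malate dehydrogenase, 1.76-fold lower, Sdhc, a subunit of succinate dehydrogenase, 1.58-fold lower, and Pcx, pyruvate carboxylase, at least 1.6-fold lower. Each of these 5 calls ended with some arrays left out (highest adjusted p 0.0543 to 0.204). Of 27 fatty acid oxidation and lipid genes, 6 were higher (22.2%, 4 to 6) and 2 lower (7.41%, 1 to 2), with a median of -0.01. Acsl5, an acyl-CoA synthetase (2.44-fold), and the peroxisomal and mitochondrial enzyme Ech1 (2.25-fold) were higher, as were Cpt1c and the coactivator Ppargc1a by at least 1.81-fold and 1.09-fold. Fabp3, a fatty acid carrier, was at least 2.03-fold and Pex11a, of peroxisome division, 2.15-fold lower. Calls of Cpt1c and Pex11a ended with some arrays left out (highest adjusted p 0.0512 and 0.0829).

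Solute carriers had 4 lower (2 to 5) and 1 higher (0 to 1) of 25. Their lower share was near the 15.4% over all genes, and their higher share was below the 13.6% over all genes. Their median log2 change was -0.36 (-0.12 over all genes). Slc38a4, a neutral amino acid transporter, gave 8.62 and 8.93 in wild type, 5.38 and 5.2 in IKKa-null, below background, and 7.12 and 6.47 in reconstituted cells, at least 6.84-fold less in IKKa-null cells (adjusted p = 0.000296). The nucleoside transporter Slc29a1 was 2.46-fold lower (9.38 and 9.28 against 8.04 and 8.02), the copper transporter Slc31a1 1.73-fold and Slc7a6 1.97-fold. Slc1a3, a glutamate transporter, was 2.6-fold higher. Of 16 prostaglandin and phospholipid mediator genes 5 were higher (31.2%, 1 to 5) and 2 lower (12.5%, 0 to 2). Their median was -0.17, and 1 was higher and 1 lower under median scaling. Ptgs2, the inducible cyclooxygenase, was below background at 4.97 and 5.83 in wild type and gave 8.32 and 7.23 in IKKa-null cells, at least 2.82-fold more. The lysophosphatidic acid receptor Lpar1, the lipid phosphatase Plpp3 and Lta4h, which makes leukotriene B4, were 1.79-fold, 1.72-fold and 1.64-fold higher, and prostacyclin synthase, Ptgis, and the sphingosine phosphate receptor S1pr2 were 2.31-fold and 1.75-fold lower. Leaving out some arrays ended the calls of Slc31a1, Slc7a6, Slc1a3, Ptgs2, Lpar1, Plpp3, Lta4h, Ptgis and S1pr2 (highest adjusted p from 0.0535 for Ptgs2 to 0.207 for Slc7a6).

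Genes that process collagen and build elastic fibres were lower more often than higher. Of 29 tested, 9 were lower (31.0%, 5 to 10) and 3 higher (10.3%, 1 to 4), against 15.4% and 13.6% over all genes. Their median log2 change was -0.14. Within the lysyl oxidases, which crosslink collagen and elastin, members went opposite ways. Loxl4 gave 7.06 and 7.58 in wild type and 9.89 and 9.63 in IKKa-null cells, 5.44-fold more, and Lox was 2.16-fold higher, while Loxl2 was 3.36-fold lower (8.38 and 8.08 against 6.84 and 6.12). Pcolce2, an enhancer of procollagen cleavage, was 5.36-fold lower, the elastic fibre proteins Fbln1 and Efemp1 2.93-fold and at least 1.73-fold lower, and Ltbp3, which binds latent TGF-beta, 1.83-fold higher. Of 19 serpins and ADAM-family proteases, 4 were higher (21.1%, 2 to 4) and 2 lower (10.5%, 0 to 2), with a median of 0.34. Adamtsl4 was 4.07-fold, carboxypeptidase Cpe 3.62-fold, the secreted protease Htra1 1.71-fold and Serpinb6b at least 1.19-fold higher. Serpinf1, the anti-angiogenic factor PEDF, was 2.79-fold lower (12.06 and 11.25 against 10.28 and 10.07, with 13.15 and 13.5 in reconstituted cells), and Serpinh1, the collagen chaperone HSP47, was 1.88-fold lower. With some arrays left out, calls were lost for Lox, Ltbp3, Htra1, Serpinb6b, Serpinf1 and Serpinh1, at highest adjusted p-values of 0.112, 0.0844, 0.15, 0.0659, 0.0654 and 0.078.

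Of 12 tested gap junction and ion channel genes, 4 were higher (33.3%, 2 to 3) and 3 lower (25.0%, 1 to 3). Over all genes 13.6% were higher and 15.4% lower, and the list's median log2 change was 0.21. Kcnk2, a mechanically gated potassium channel, was below background at 5.87 and 5.89 in wild type and gave 9.1 and 8.82 in IKKa-null and 8.78 and 8.81 in reconstituted cells, at least 6.42-fold more. The calcium-activated potassium channel Kcnn4 was at least 2.25-fold higher. Connexin 43, Gja1, was 1.67-fold higher and connexin 45, Gjc1, 2.33-fold lower, the latter near wild type in reconstituted cells (8.75 and 8.75, 7.72 and 7.34, and 8.71 and 8.59 in the order wild type, IKKa-null, reconstituted). The calcium pump Atp2b1 was 1.67-fold higher, and Panx1 1.87-fold lower. Kcnab1 gave 7.28 and 7.68 in wild type and 5.03, not above background, and 6.0 in IKKa-null cells, 3.89-fold less. Calls of Gja1, Atp2b1, Kcnab1 and Panx1 ended with some arrays left out (highest adjusted p 0.0864, 0.227, 0.125 and 0.135).

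Several developmental transcription factors were lower, or below background, in IKKa-null cells. Of 30 tested KLF, SOX, GATA and RUNX regulators, 10 were lower (33.3%, 5 to 10) and 2 higher (6.67%, 1 to 3). Over all genes 15.4% were lower and 13.6% higher, and the list's median log2 change was -0.19. Among the members with probes above background on all 6 arrays, 2 were lower and the median was 0.37. The SoxC factors Sox11 and Sox12 gave 9.14 and 9.0 and 8.68 and 8.31 in wild type and lay below background in IKKa-null cells (5.01 and 4.86, and 4.68 and 4.67), at least 8.37-fold and 5.62-fold less (adjusted p = 6.8e-05 and 9.14e-05). Both were also below background in reconstituted cells. Gata6 gave 9.9 and 9.06 in wild type and 6.59 and 5.46 in IKKa-null cells, 11-fold less, with 8.15 and 7.7 in reconstituted cells, and Gata3 9.54 and 8.69 against 7.48 and 5.71, 5.75-fold less. IKKa-null replicate 2 was not above background for either gene. Sox9, a factor of cartilage and other lineages, was 4.18-fold higher (8.81 and 8.37 against 11.07 and 10.24), and Foxc2 at least 1.7-fold. Nuclear receptor and circadian genes had 4 higher (14.8%, 2 to 4) and 0 lower (0 to 0) of 27, with a median of 0.27. That higher share was near the one over all genes. The clock output gene Dbp was 2.91-fold higher (7.09 and 7.12 against 8.37 and 8.92), the coactivator Ncoa1 1.91-fold, Esrra 1.69-fold and Rorb at least 1.06-fold. Calls ended with some arrays left out for Gata3, Sox9, Ncoa1, Esrra and Rorb (highest adjusted p 0.116, 0.0563, 0.15, 0.205 and 0.0502).

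The cells of both groups carried fibroblast genes. Of 15 fibroblast markers 12 were tested, and their summed intensity after normalization was 6307.2 and 5900.3 in wild type, 9575.7 and 9073.7 in IKKa-null and 22213.6 and 26200.2 in reconstituted cells. Fn1, S100a4 and Twist1 were higher in IKKa-null cells by 2.03-fold, 3.07-fold and 2.05-fold, and Pdgfra and Col1a1 were lower by 4.89-fold and 2.19-fold. Of 10 epithelial markers 4 were tested, with Krt7 higher by at least 4.71-fold (8.73 and 8.3 in IKKa-null cells, below background in the other 2 groups) and Krt14 lower by 3.62-fold (8.0 and 7.86 against 6.04 and 6.11). Cdh1, Epcam, Krt5, Krt8 and Krt18 were not tested, and the summed epithelial level was 603.9 and 590.7 in wild type, 797.7 and 605.4 in IKKa-null and 159.6 and 151.2 in reconstituted cells. None of the 7 endothelial and 6 muscle markers passed the filter on dim probes. Of macrophage and blood markers 5 genes were on the array, and 1, Cd14, passed. Of 7 cartilage and bone markers 2 were tested, with Sox9 higher, and of 6 neural markers 2, with Tubb3 lower by 1.56-fold. In bulk RNA, fewer cells of a type and less RNA per cell cannot be told apart.

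Called genes above background on all 4 arrays, with no overlap of the 2 groups, were ranked by size. Genes with provisional names, such as those starting with Gm or LOC or ending in Rik, were left out. The 12 largest differences in each direction included 3 members of the gene lists, Itga6, Aldh1a1 and Pcolce2. Psca, a surface protein with a lipid anchor, gave 7.56 and 8.33 in wild type, 11.99 and 12.81 in IKKa-null and 9.47 and 9.96 in reconstituted cells, 21.9-fold more in IKKa-null cells, and its relative Ly6c1 was 18.3-fold higher (7.39 and 7.15 against 11.72 and 11.21). Gpnmb, a transmembrane glycoprotein, was 15.3-fold, Ephx1, the microsomal epoxide hydrolase, 12.3-fold, Wnt9a 12.1-fold and Col18a1, the source of endostatin, 11-fold higher. The proliferins Prl2c3 and Prl2c2, placental hormones of the prolactin family, were 17-fold and 11.8-fold higher, and as near-identical paralogs their probes may not separate them. Fgfr1op2 and Prkar2b, a regulatory subunit of protein kinase A, were 10.9-fold and 9.62-fold higher, and Itga6 and Aldh1a1 completed the 12. Of these 12, Wnt9a, Prl2c3, Prl2c2 and Aldh1a1 were not called higher in reconstituted cells against wild type, whereas Gpnmb, Col18a1 and Prkar2b differed between reconstituted and IKKa-null cells by -0.28, -0.34 and -0.14 on the log2 scale.

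In the other direction, Ddah2, an enzyme that degrades inhibitors of nitric oxide synthesis, gave 10.54 and 10.71 in wild type, 7.6 and 6.47 in IKKa-null and 10.21 and 10.31 in reconstituted cells, 12-fold less in IKKa-null cells (adjusted p = 0.000839). Renbp was 9.49-fold lower (10.04 and 9.66 against 6.65 and 6.55) and below background in reconstituted cells. Acta2, smooth muscle actin, was 7.58-fold lower with replicates that differed widely, 8.1 and 9.72, against 12.09 and 11.58 in wild type and 12.97 and 13.17 in reconstituted cells. The basement membrane protein Nid2 (6.75-fold), Marcksl1 (6.45-fold), Erdr1 (6.02-fold), the sorting receptor Sort1 (5.89-fold), Epb41l4a (5.8-fold), Pcolce2 (5.36-fold) and Fuom, fucose mutarotase (5.27-fold), were lower too, although a second probe of Fuom was called higher by at least 2.71-fold (1.98 on the log2 scale). The chemokine Cxcl12 was 5.45-fold lower (11.1 and 10.99 against 8.43 and 8.77, with 10.43 and 10.42 in reconstituted cells), and Cyba, the p22phox subunit of NADPH oxidase, 5.35-fold (11.25 and 11.18 against 8.91 and 8.68, with 10.78 and 10.83). Ddah2, Acta2, Cyba and Pcolce2 did not differ by a call between reconstituted and wild-type cells. The calls of all 24 genes held with each array left out in turn.

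**Figure D4:**
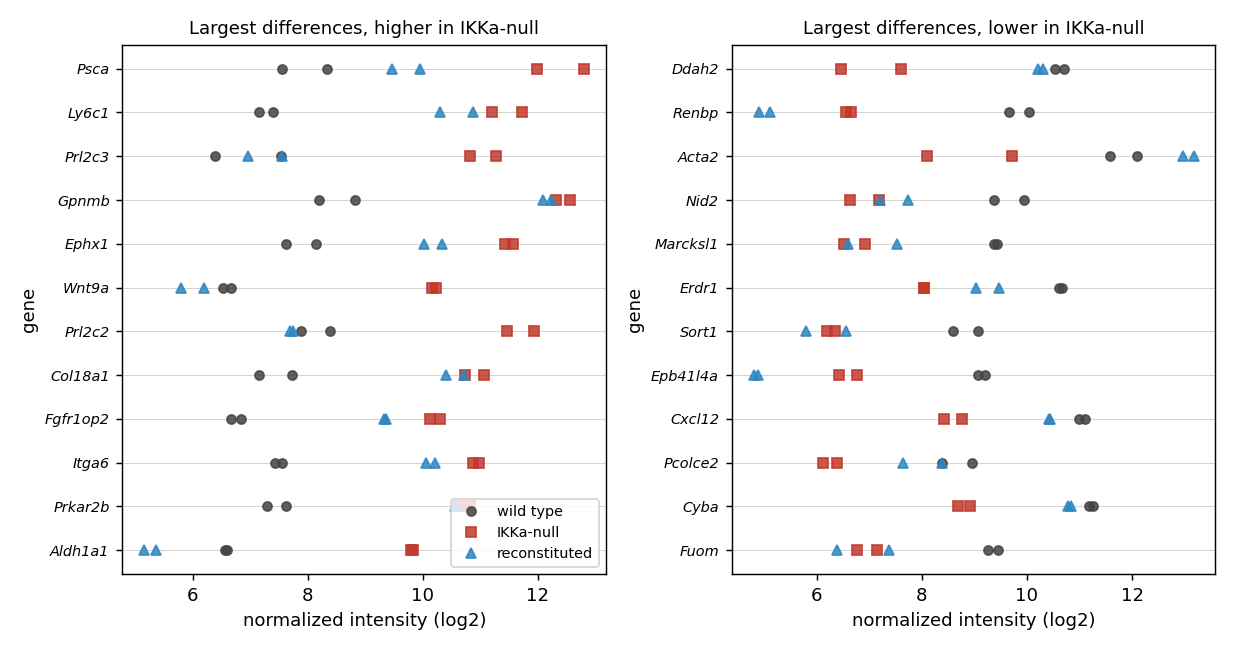
Normalized intensity (log2) on each array for the 12 genes with the largest difference in each direction among called genes above background on all 4 arrays, provisional gene names left out; circles are wild type, squares IKKa-null, triangles reconstituted. Psca spans 7.56 to 12.81, and Ddah2 shows reconstituted cells close to wild type.

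Probes of the same gene did not always move together. Of 1748 genes with several tested probes, 9 had probes called in opposite directions, namely Cdkl2, Dtymk, Fuom, Fxr2, Obsl1, Ppfibp1, Rplp0, Wasf2 and Zfp787, and their direction is uncertain. In Dtymk, the thymidylate kinase counted above as lower, the brighter probe differed by -1.0 and the other by 0.95 on the log2 scale. The calls of the brighter probes of Cdkl2, Dtymk, Obsl1, Rplp0, Wasf2 and Zfp787 ended with some arrays left out. Their highest adjusted p-values were 0.0888, 0.0783, 0.111, 0.124, 0.194 and 0.167 in that order. The housekeeping genes Actb and Gapdh differed by -0.6 and 0.18 (adjusted p = 0.0402 and 0.496), and the call of Actb ended with some arrays left out (highest adjusted p 0.179) and under median scaling and cyclic loess.

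Genes called lower were unevenly spread over the chromosomes. On chromosome 5, 192 of 491 tested genes were lower (39.1%) and 34 higher (6.92%), with a median log2 change of -0.52. Fscn1, Ephb4, Mdh2 and Actb, described above as lower, are on this chromosome too. On the other chromosomes other than Y the lower share ran from 4.56% to 25.7%, the latter on chromosome 17, and the higher share from 8.19% to 23.4%. In reconstituted minus wild-type cells the chromosome 5 median was -0.43, and the number of copies of the chromosome was not measured. In the gene order of GRCm38.p6, 28 runs of 4 or more neighbouring tested genes were all called in the same direction, 17 lower and 11 higher, and 12 of the lower runs lay on chromosome 5. The longest of these held 10 genes from Cdk2ap1 to Ccdc92, with a median of -0.99 (-0.96 in reconstituted cells). Among the runs called higher, Birc2, Birc3, Yap1, Cfap300 and Cep126 on chromosome 9, which include 2 apoptosis inhibitors and the Hippo pathway coactivator, had a median of 3.28 in IKKa-null and -0.01 in reconstituted cells. Snhg18, Sema5a, Sdc2 and Cpq on chromosome 15 had medians of 2.78 and 2.7 in the same order, and Tmem200a, L3mbtl3, Arhgap18, Lama2, Ptprk and Echdc1 on chromosome 10 had medians of 1.17 and 0.37. A lower run on chromosome 19, Hps6, Ldb1, Nolc1, Nfkb2 and Fbxl15, included Nfkb2, the substrate of IKKa in p100 processing, with a median of -1.06 (-0.46 in reconstituted cells).

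**Figure D5:**
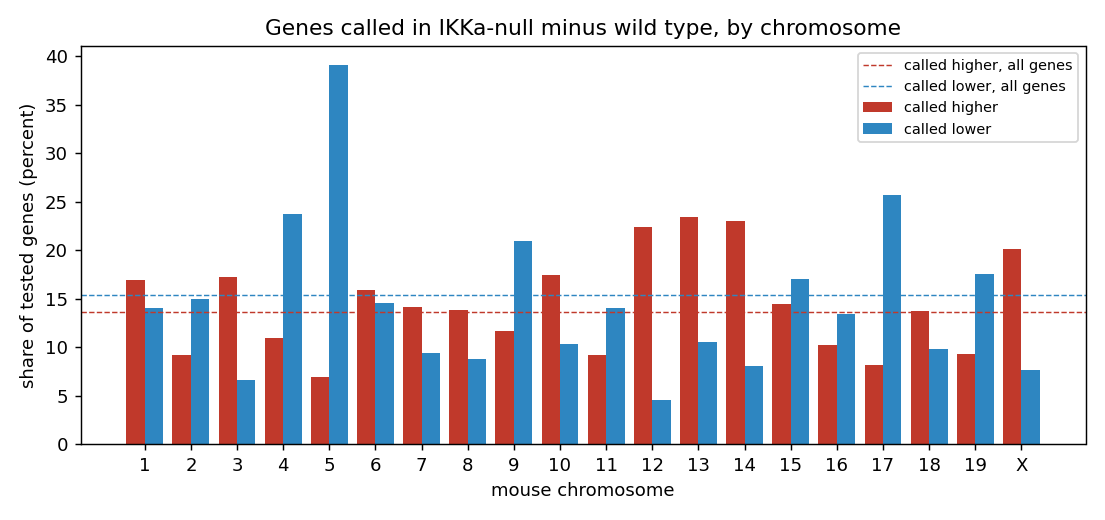
Share of tested genes called higher and lower in IKKa-null minus wild type (percent, bars from 0) by mouse chromosome; dashed lines are the shares over all genes, 13.6% higher and 15.4% lower. The lower share of chromosome 5, 39.1%, is above that of every other chromosome drawn.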

How the data were processed

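Biotin-labelled total RNA of 6 samples, 3 groups of 2, had been measured on Illumina bead arrays. Per the file headers, the deposited array files hold each target's average intensity, written by BeadStudio 1.5.0.34 without normalization. The deposited series matrix holds a second set of intensity values, which on comparison were quantile-normalized raw values. Targets were named through GEO's platform annotation: 29534 targets had a single gene symbol, 11 several and 16575 none.

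Here intensities were background-corrected with nec in limma 3.58.1 (R 4.3.3), with 352 immune-receptor segment targets and 42 spike or non-mouse targets as negative controls and an offset of 16, then quantile-normalized and taken to log2. A probe was detected where under 1% of background probes lay at or above it, and the 11659 probes detected on at least 2 of 6 arrays were tested. The controls replaced detection values, which the files used here do not hold. All 6 arrays entered 1 limma fit (lmFit and eBayes, two-sided, Benjamini-Hochberg, 3 residual and 3.97 prior degrees of freedom), and adjusted p under 0.05 is called. A gene was represented by its brightest probe, and levels were compared between samples only, never between probes. A bound sets the bright group's mean against the lowest detected signal of the dim group's arrays, or the dim probe's own signal where that was higher. On simulated arrays (200 of 11659 probes changed, 20 draws) the fit recovered 71.7% of 4-fold, 15.4% of 2-fold and 0.2% of 1.5-fold changes, with 4.1% of calls false. Far more probes, 3375, were called in the data, so these rates do not carry over to this comparison.

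The members, gene lists and tests were chosen with earlier results of these data known. Of 32 gene lists, 1 is not reported here. Named genes are, per list, up to 4 called members in each direction by size, the 12 largest measured differences in each direction, genes with opposed probes, vector targets, runs of 4 or more neighbours, Actb and Gapdh, plus those said to be named after their values were seen. The 12 largest differences leave out genes with provisional names. Sequences and gene order come from RefSeq (GRCm38.p6), and the array files name no build. Alternatives covered background correction, scaling, filters, the replicate block, and leaving out each array; scaling to tested probes and leaving out chromosome 5 were chosen after seeing the data. Deviations of same-numbered arrays correlated at 0.297 between wild type and IKKa-null. The number of arrays limits the precision.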

Additional observations from a re-analysis of the deposited data

Results flagged for a closer look

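Vector targets outside the list of mouse genes, 3 in all and not used in the comparison, were above background on both IKKa-null arrays and above both wild-type arrays. The target for the 5′ LTR of a murine sarcoma virus gave a mean of 3392.8 intensity units in IKKa-null cells (3260.7 and 3524.9), 106.6 in wild type and 255.8 in reconstituted cells. Neomycin resistance gave 2331.9 units in IKKa-null, 112.2 in wild type and 3048.1 in reconstituted cells. A retroviral packaging signal gave 225.1 units in IKKa-null cells (206.1 and 244.1), 105.6 in wild type and 108.4 in reconstituted cells. Groups of 2 arrays are too small for an outlier test.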

How the results depend on the processing

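None of the 203 named calls changed direction under the alternatives run, and the medians of 0 to 5 of 32 lists took the other sign, 5 without wild-type replicate 1. Of 3375 probes called, 51.7% were higher; cyclic loess called 3399 (60.2% higher) and median scaling over all targets 1895, of which 562 were lower and 70.3% higher. Leaving out 1 array gave 1486 to 3497 calls, 909 to 1792 higher and 577 to 1705 lower. The replicate block gave 3611 calls, 1882 higher and 1729 lower; the numbers are shared by 2 pairs only and the labels do not say what they mark. The median log2 change of p53 targets, 0.74, was 0.59 without background correction and in the series matrix, 0.83 under cyclic loess and for probes detected on all 6 arrays, and 0.57 to 0.91 with 1 array left out. For the RB and E2F list it was -0.08 with probes detected on all 6 arrays and -0.34 to -0.1 with 1 array left out. For nucleotide synthesis it was -0.3 without background correction and in the series matrix, -0.37 under median scaling, -0.34 with probes detected on all arrays and -0.53 to -0.35 with 1 array left out. For chromatin assembly it was -0.43 without background correction, in the series matrix and under median scaling, -0.44 under cyclic loess, -0.75 as the mean of all probes of a gene and -0.63 to -0.49 with 1 array left out. For DNA repair it was -0.2 without background correction and in the series matrix, -0.27 under median scaling, -0.29 under cyclic loess and -0.39 to -0.29 with 1 array left out, and for ribosome biogenesis -0.68 to -0.45 with 1 array left out. The cause of these moves was not tested. Of 203 named genes called, 55 lost the call under median scaling and 15 under cyclic loess. Signal over background limits genes in which 1 group was dim, where only a bound is given.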
